A study of Mus musculus with 4 samples.

Results

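Ionotropic glutamate receptors are ligand-gated cation channels built of subunits around a common pore, and they carry most fast excitatory signals in the brain. AMPA receptors, assembled from the subunits of Gria1 to Gria4, carry the fast current, and kainate receptors adjust release and excitability. NMDA receptors combine the obligatory subunit of Grin1 with subunits of the Grin2 genes and open when glutamate binds while the membrane is depolarised. Granule cells of the dentate gyrus receive glutamatergic input from the entorhinal cortex, and the potentiation of these synapses is a standard model of plasticity.

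Of 10 listed subunit genes, 9 had at least 1 probe set that the array annotation pairs with that gene alone, which gave 14 of the 12422 probe sets that are not controls. A probe set is the group of short oligonucleotides on the array that reports 1 transcript. The 14 comprised 8 of AMPA subunits, 2 of the kainate subunit gene Grik5 and 4 of NMDA subunits. Grin1, the remaining gene, was not analysed here. Total RNA of the hippocampal dentate gyrus was hybridised to 4 arrays, and the donors were young males of the C57BL/6J strain. These mice were controls that an experimenter handled and that had no further treatment, and their RNA was collected 1, 2, 4 and 6 h after shocked mice of the same study had their final shock. Shocked animals were not analysed here. There is 1 array for each hour, the labels do not state how many mice stand behind an array, and a value at an hour therefore has no replicate error. Where a mean ± SD is given over the 2, 4 and 6 h arrays (n = 3), it describes the spread between those hours.

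Values are intensities, the brightness of a probe set on a linear scale as deposited. Intensities of different probe sets depend on their oligonucleotides, so each probe set is compared only with itself in other arrays. A marker list summed below is likewise compared only with its own sum. For log2 differences, intensities under 16.4, the 10th percentile of the table, were set to that floor. In bulk tissue, fewer cells of a type and less RNA per cell cannot be told apart. Of the 14 probe sets, 10 (of Gria1, Gria2, Gria3, Grik5, Grin2b and Grin2c) were bright enough for the trend test described below. The other 4 probe sets, of Gria2, Gria4, Grin2a and Grin2d, were dim. That cut acts on the mean log2 intensity over all 4 arrays. Grin2b passed it through its later values, with a 1 h value of 46.0 under the cut of 101.

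The 1 h array, from which all differences are taken, stood apart in a measure of RNA or labelling quality. The control transcript Gapdh, a glycolytic enzyme, has probe sets along its length, and the ratio of the 3′ to the 5′ one was 4.88 at 1 h and 1.13, 1.33 and 1.24 at 2, 4 and 6 h. The same ratio for beta-actin, the cytoskeletal protein, was 2.51, 1.83, 2.20 and 1.97. The position of the subunit probe sets along their transcripts was not analysed here. The part of RNA or labelling quality in the differences from 1 h was not tested.

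Measured against the 1 h array, most subunit probe sets were brighter in each of the later arrays, and the median difference was close between the later hours. On 4 of the 14 probe sets the later values themselves differed at least 2-fold, where 25.8% of all did so. The median log2 difference between the mean of the 2, 4 and 6 h arrays and the 1 h array was 0.93 over the 14 probe sets, which is 1.91-fold. Over all 12422 probe sets it was -0.04. Taken hour by hour, the median of the 14 was 0.96 at 2 h, 0.93 at 4 h and 0.94 at 6 h, and that of all probe sets -0.01, -0.01 and -0.06. The 1 h intensity lay below all 3 later ones in 11 of the 14 probe sets, where 26.4% of all probe sets did so, and above all 3 in 2 of them, where 35.2% did so. With the floor set first, 1 of the 11, a Gria2 probe set with 3 values under it, drops out, which leaves 10 of the 14, where 24.4% of all probe sets did so. With 1 array at 1 h these differences have no test. The arrays were deposited at a common trimmed mean, so a difference in total RNA would not show.

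**Figure D1:**
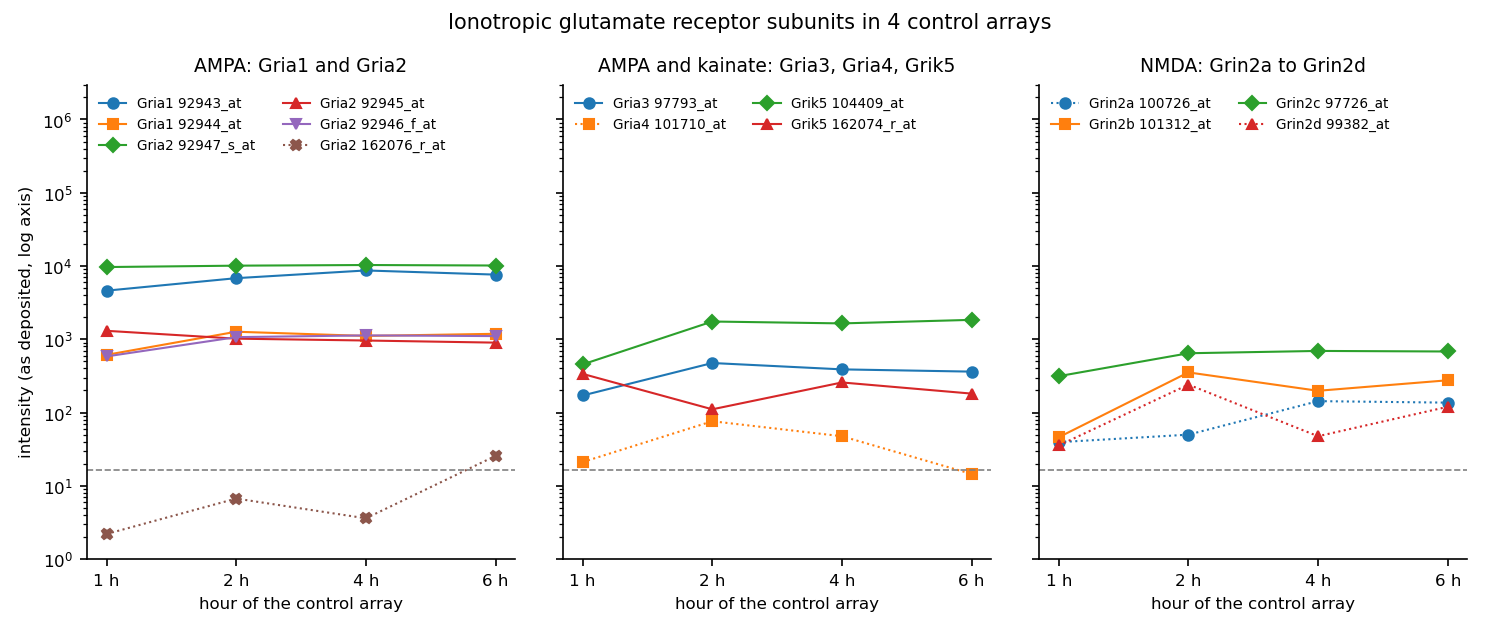
Deposited intensity (log axis) of the 14 subunit probe sets in the control arrays of 1, 2, 4 and 6 h. Each line is 1 probe set, dotted lines mark the 4 dim ones and the dashed line is the floor of 16.4. Most lines are lower at 1 h than at the later hours, while Gria2 92947_s_at is flat throughout.

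Counted at 2-fold, the mean of the later arrays was higher than the 1 h value for 6 of the 14 probe sets, where 7.58% of all 12422 probe sets were. It was 2-fold lower for 0 of them, where 8.84% of all were. These 6 were the brighter probe set of Grik5 and those of Gria3, Grin2a, Grin2b, Grin2c and Grin2d. Among the 10 bright enough for the trend test the count was 4 higher, where 5.29% of 7453 such probe sets were, and 0 lower, where 1.8% were. Since a dim 1 h value lowers the mean on which that filter acts, the smaller count is given as a description. At 2 h, 7 subunit probe sets were at least 2-fold higher than at 1 h (9.89% of all) and 1, the dimmer one of Grik5, was lower (10.2% of all). At 4 h the counts were 6 higher (9.95% of all) and 0 lower (9.53% of all). At 6 h they were 6 higher (8.44% of all) and 0 lower (11.4% of all). All 3 hours use the same 1 h array, so these counts are not independent of each other. At 1.5-fold the counts at 6 h were 10 higher (14.7% of all) and 1 lower (20.7% of all). Set against the mean of the other later arrays instead of 1 h, 2 probe sets, of Gria4 and Grin2d, were 2-fold higher at 2 h (6.58% of all) and 1, of Grin2a, was lower (5.55% of all). At 4 h on that baseline 0 were higher (7.4% of all) and 1, of Grin2d, was lower (5.2% of all). At 6 h 0 were higher (4.24% of all) and 1, of Gria4, was lower (7.04% of all). These 3 probe sets are among the 4 dim ones.

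**Figure D2:**
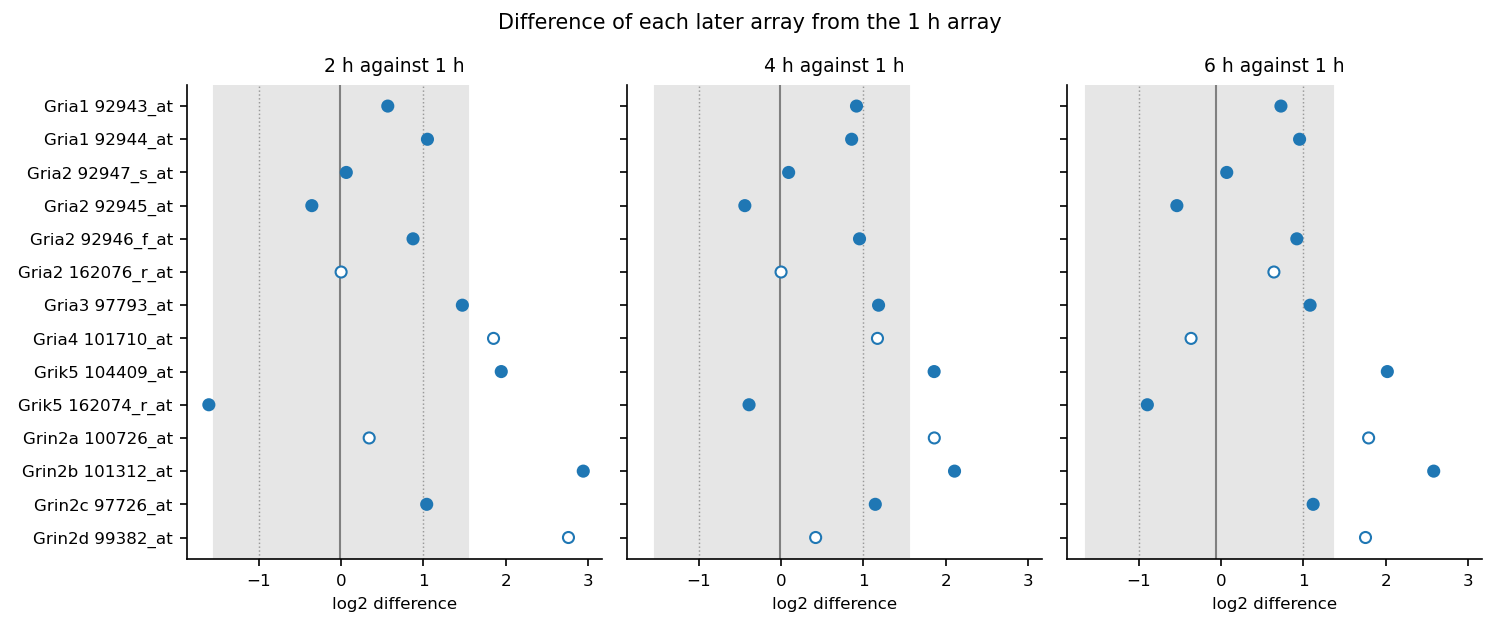
Log2 difference of the 2, 4 and 6 h arrays from the 1 h array for each subunit probe set; open circles are the 4 dim ones. The grey band covers all 12422 probe sets except the lowest 5% and the highest 5%, the grey line is their median and dotted lines mark 2-fold. Grin2b and the brighter Grik5 probe set lie right of the band at all 3 hours. Grin2b, drawn filled, was dim at 1 h (46.0).

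The AMPA subunits gave 8 probe sets. Gria1 encodes GluA1, a subunit delivered to synapses during potentiation, and its probe set 92943_at read 4607, 6823, 8692 and 7628 at 1, 2, 4 and 6 h. Its second probe set, 92944_at, read 613, 1268, 1110.3 and 1187.5. On both, the 1 h array was the lowest. The mean over the later arrays was 7714 ± 938 (SD, n = 3) on the first, against 4607 at 1 h, a log2 difference of 0.74. It was 1188 ± 78.7 on the second, against 613 at 1 h, a log2 difference of 0.95. The probe sets of Gria1 thus differed in size but shared their direction.

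Gria2 encodes GluA2, the subunit whose edited pore residue makes AMPA receptors nearly impermeable to calcium. Its 4 probe sets did not share a direction. The brightest, 92947_s_at, read 9675, 10106.5, 10313.5 and 10154 at 1, 2, 4 and 6 h. The later arrays averaged 10191 ± 108 (SD, n = 3), a coefficient of variation of 1.06%, against 9675 at 1 h, which is a log2 difference of 0.07 and the smallest absolute difference among the 14. The probe set 92946_f_at read 584, 1069, 1130 and 1105, with the 1 h array low and a log2 difference of 0.92. The probe set 92945_at ran the other way, at 1304.5, 1019.5, 962 and 900, with the 1 h array highest and a log2 difference of -0.44. The last, 162076_r_at, read 2.2, 6.7, 3.6 and 25.6, under the floor in 3 of 4 arrays, so its values have no order. With the floor its log2 difference of 0.21 is counted in the median over the 14 probe sets, which is 0.95 without it. Probe sets with the suffixes s, f and r can share sequence with other transcripts or were designed under relaxed rules, so their values are less certain.

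Gria3, the AMPA subunit gene on the X chromosome, read 171, 474, 388 and 362 at 1, 2, 4 and 6 h. The 1 h array was the lowest, and the later mean of 408 ± 58.8 (SD, n = 3), against 171 at 1 h, is a log2 difference of 1.25. Gria4, abundant in some interneurons and in the cerebellum, was dim at 21.1, 76.1, 47.5 and 14.5. Its lowest value was at 6 h and lay under the floor, so Gria4 is the 1 subunit gene whose 1 h value sat inside the range of the later ones.

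Grik5 encodes GluK5, a kainate subunit that binds glutamate with high affinity and forms channels only together with other kainate subunits. Its brighter probe set, 104409_at, read 454, 1747, 1646 and 1840.5 at 1, 2, 4 and 6 h. The later arrays averaged 1745 ± 97.1 (SD, n = 3), against 454 at 1 h. This is a log2 difference of 1.94, or 3.84-fold, with the 3 later arrays within 1.12-fold of each other. Its dimmer probe set, 162074_r_at, read 337, 111, 257 and 181, with the 1 h array highest and a log2 difference of -0.96. The later arrays themselves spread 2.33-fold on that probe set. The direction for Grik5 therefore depends on the probe set.

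Of the NMDA subunits, Grin2b showed the largest difference of the 14 probe sets. Grin2b encodes GluN2B, the subunit that prevails early in development and gives slow currents, and it read 46.0, 353, 198 and 276 at 1, 2, 4 and 6 h. The later mean was 276 ± 77.5 (SD, n = 3), against 46.0 at 1 h, a log2 difference of 2.54 or 5.83-fold. The highest and lowest of the later arrays differed by 1.78-fold. The 1 h value of Grin2b was dim, close to those of Grin2a (39.4) and Grin2d (35.5), so its fold rests on a low intensity. Grin2c, whose subunit GluN2C is best known from cerebellar granule cells, read 314, 644.5, 693 and 681. Its later mean was 673 ± 25.4 (SD, n = 3), a coefficient of variation of 3.77%, against 314 at 1 h, a log2 difference of 1.10 or 2.14-fold. The 1 h array was the lowest on both.

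Grin2a and Grin2d were dim, and their later arrays disagreed. Grin2a encodes GluN2A, which joins and partly replaces GluN2B as synapses mature, and it read 39.4, 49.9, 143 and 137 at 1, 2, 4 and 6 h. The 1 and 2 h arrays were low and the 4 and 6 h arrays high, 3.63-fold and 3.46-fold over 1 h. Grin2d, whose subunit GluN2D is found in interneurons of the adult hippocampus, read 35.5, 241, 47.5 and 120. Its 2 h value was 6.78-fold and its 4 h value 1.34-fold over 1 h. The log2 differences of the later mean from 1 h were 1.33 for Grin2a and 1.65 for Grin2d. The later arrays spread 2.87-fold for Grin2a and 5.07-fold for Grin2d, so the order of those hours rests on low intensities. At 2 h Grin2a was among the lower values and Grin2d at its highest, so these 2 did not share a pattern over the later hours.

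The 3 receptor classes overlapped. The later mean was at least 2-fold above 1 h for 4 of 4 NMDA, 1 of 2 kainate and 1 of 8 AMPA probe sets, where 7.58% of all 12422 were. The median log2 differences of the 3 classes were 1.49, 0.49 and 0.81. The NMDA count includes the dim probe sets of Grin2a and Grin2d, whose later arrays spread 2.87-fold and 5.07-fold. The AMPA values ran from -0.44 to 1.25, and the NMDA values from 1.10 to 2.54. Among the AMPA probe sets, only that of Gria3 (1.25) lay within the NMDA range. The 2 kainate values, both of Grik5, were -0.96 and 1.94. A difference between the classes was not tested.

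The SD of log2 intensity over 2, 4 and 6 h had a median of 0.19 over the 14 probe sets, and 0.26 over all 12422. With the 1 h array included, the medians were 0.60 and 0.34. The highest of the 3 later values was at least 2-fold over the lowest for 4 of the 14 probe sets, where 25.8% of all probe sets were, namely those of Gria4, Grin2a and Grin2d and the dimmer one of Grik5.

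A linear trend of log2 intensity on the hour was fitted with limma over 7453 probe sets, with 2 residual degrees of freedom. None of the 10 subunit probe sets tested passed at an adjusted p of 0.05 in limma, where 1 of all 7453 did (0.0134%), and 0 of the 10 had an unadjusted p under 0.05, where 4.4% of all did. Without the 2 h array 8 of the 10 had one, where 13.4% of all did, and on the log2 of the hour 6 had one, where 8.95% of all did. No subunit probe set passed at an adjusted p of 0.05 in limma in either fit, where 1 of all 7453 did in each. A fit that leaves out an array has fewer residual degrees of freedom. With the arrays scaled to equal medians, 3 of the 10 had an unadjusted p under 0.05 in limma, where 287 rising and 108 falling of all 7453 did. Without the 6 h array 1 had one, where 117 rising and 113 falling of all did. The p-values measure only the spread between these 4 arrays. The steepest subunit slopes were 0.34 ± 0.21 (SE) log2 units per hour for Grin2b and 0.31 ± 0.13 for the brighter Grik5 probe set. Each had an adjusted p of 0.874 in limma, the lowest value of any subunit probe set. Grin2c had a slope of 0.18 ± 0.08, and the Gria1 probe sets 0.13 ± 0.06 and 0.13 ± 0.08. The slope for Gria2 was 0.01 ± 0.03 on its brightest probe set and -0.09 ± 0.05 on 92945_at. Without the 1 h array the slopes were -0.09 ± 0.11 for Grin2b, 0.02 ± 0.04 for the brighter Grik5 probe set and 0.02 ± 0.06 for Grin2c, and the lowest adjusted p of any subunit probe set in limma was 0.991. In a fit with no filter, Grin2a had a slope of 0.40 ± 0.14 (adjusted p = 0.812 in limma).

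**Figure D3:**
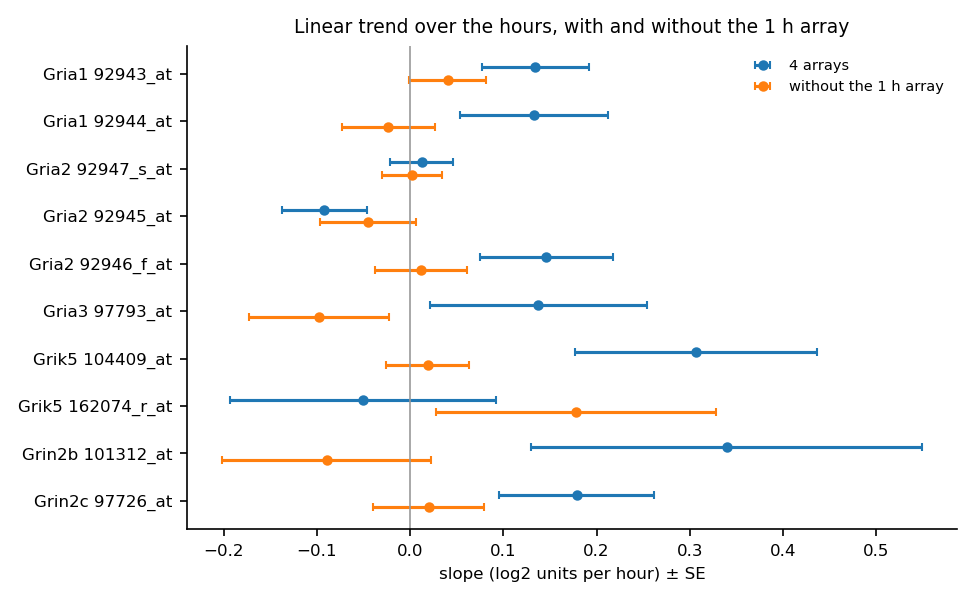
Slope of log2 intensity per hour ± SE for the 10 subunit probe sets tested, from all 4 arrays (blue) and from the 2, 4 and 6 h arrays (orange). Without the 1 h array the slopes of Grin2b, Grik5 104409_at and Grin2c lie between -0.09 and 0.02.

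The RefSeq promoter table of GRCm38.p6 held 5 of the 9 measured genes, and the 250 bases before the annotated start of 3 of them are shown. Grik5 and Grin2c are shown because their brighter or single probe set was at least 2-fold above 1 h at all 3 later hours. Gria2 is shown beside them because its brightest probe set stayed within 1.07-fold. On its probe sets 92946_f_at and 92945_at the log2 differences were 0.92 and -0.44, so Gria2 was flat on its brightest probe set only. That probe set, 92947_s_at, has a suffix, while 92945_at has none. On the dimmer Grik5 probe set, 162074_r_at, the log2 difference was -0.96. All 3 sequences are written 5′ to 3′ on the gene's strand, which is the minus strand. Capitals mark GGGCGG, the GC box that Sp1-family factors bind, searched on both strands.
Grik5, chr7:25072370-25072619: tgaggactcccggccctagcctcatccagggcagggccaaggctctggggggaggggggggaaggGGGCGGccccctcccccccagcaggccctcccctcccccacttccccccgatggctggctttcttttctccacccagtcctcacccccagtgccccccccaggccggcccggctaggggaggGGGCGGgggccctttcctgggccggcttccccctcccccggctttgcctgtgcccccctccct
Grin2c, chr11:115267244-115267493: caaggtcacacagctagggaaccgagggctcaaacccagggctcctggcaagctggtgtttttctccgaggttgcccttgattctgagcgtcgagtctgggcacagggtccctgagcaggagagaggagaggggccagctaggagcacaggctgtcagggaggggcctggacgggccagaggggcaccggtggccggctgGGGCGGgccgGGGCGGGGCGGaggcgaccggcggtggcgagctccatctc
Gria2, chr3:80802836-80803085: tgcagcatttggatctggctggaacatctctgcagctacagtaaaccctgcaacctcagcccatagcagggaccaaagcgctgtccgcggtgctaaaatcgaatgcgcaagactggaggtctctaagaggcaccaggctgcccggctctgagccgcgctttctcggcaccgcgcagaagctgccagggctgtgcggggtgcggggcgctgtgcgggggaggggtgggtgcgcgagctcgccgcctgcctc

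The motif occurred 2 times before Grik5 and 3 times before Grin2c, where the last 2 matches share 1 base. It occurred 0 times in the windows of Gria2, Gria4 and Grin2d, though the later mean of Grin2d was 3.13-fold over 1 h. The motif was thus in 2 of the 5 windows, where 32.7% of all 32851 windows of this length held it. A link between the motif and the differences from 1 h was not tested. The other 4 motifs searched on both strands were in 0 of the 5 windows. They were the cyclic AMP response element TGACGTCA (1.55% of all windows), the E-box CACGTG (6.02%), TTCAGCACC, a part of the REST motif (0.301%), and the NRF1 motif (0.782%). Since only the GC box had matches here, no overlap between the 5 motifs was possible. A match is a description of these letters, and the arrays do not measure binding. All 5 motifs were chosen after the values and sequences had been seen.

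The genes whose course over the 4 arrays was closest to the median course of the subunits came from varied functions. Closeness was the root mean square difference of log2 deviations from each probe set's own mean, over 4 arrays and 6724 probe sets of other genes. The nearest was Mdk, the growth factor midkine, at 0.004, which read 355, 657.5, 686.5 and 678 at 1, 2, 4 and 6 h. Clcn3, an endosomal chloride transporter, followed at 0.02, then Cox4i1, a subunit of cytochrome c oxidase, at 0.02, Copg1, a coat protein of Golgi vesicles, at 0.03, and Etv4, a transcription factor, at 0.04. Other probe sets of these genes did not all share the course: the log2 difference of the later mean from 1 h was -1.18 on the other one of Cox4i1, -0.54 on the other one of Etv4 and 0.70 on that of Copg1, and from -0.22 to 0.87 on the other 3 of Clcn3. Within 0.25 log2 units of the median course lay 729 of the 6724, so a low 1 h value followed by a flat course was not restricted to receptor genes.

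Of 81 other genes of the glutamate synapse, 33 had probe sets named by them alone, 46 in all. The later mean was at least 2-fold above 1 h for 8 of the 46 (7.58% of all 12422) and 2-fold below for 1 (8.84% of all). Their median log2 difference was 0.39, against -0.04 over all probe sets. In limma's trend test 0 of the 32 bright enough passed. All 4 probe sets of the remaining ionotropic subunits had a later mean above the 1 h value. Grik2, another kainate subunit gene, read 91.8, 232, 212 and 205.5 at 1, 2, 4 and 6 h on its brighter probe set. Its dimmer probe set read 17.2, 160, 131 and 153. Grid1, a delta subunit gene, read 340, 494, 537 and 669. Grik1, a kainate subunit gene too, read 41.1, 26.2, 75.3 and 76.9, with its lowest value at 2 h. Grm8, the 1 metabotropic receptor gene measured, read 83.2, 118, 139 and 114. The 1 h array was the lowest on each of these probe sets except that of Grik1.

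Of 8 probe sets of auxiliary and editing genes, 1 was at least 2-fold higher later (7.58% of all 12422). Cnih2, which escorts AMPA receptors, read 3774, 4965, 5613.5 and 4939 at 1, 2, 4 and 6 h, and Nptx1, a secreted pentraxin that clusters AMPA receptors, 1346, 4261, 2481 and 2716. Of 17 probe sets of scaffold and trafficking genes, 2 were at least 2-fold higher later (7.58% of all). They were those of Lin7b, a scaffold protein (366.5, 892, 928 and 1012), and of Homer1, which links metabotropic receptors to the scaffold (47.0, 89.2, 95.8 and 110.1). The other Homer1 probe set, also dim, read 38.1, 43.3, 31.2 and 6.6, a log2 difference of -0.44. The brightest of these genes, Nsf, an ATPase that binds GluA2, read 6837, 9402, 7210 and 8840, and Lin7c, another scaffold gene, 2639, 3058, 2890 and 2672 on its brighter probe set. The median log2 difference of the scaffold list was 0.12 and that of the auxiliary list 0.47.

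Of 16 probe sets of glutamate transport and metabolism genes, 3 were at least 2-fold higher later (7.58% of all 12422) and 1 lower (8.84% of all). The probe sets of Glul and those of Slc38a2 disagreed in direction, while those of Slc1a1, Glud1 and Got2 did not. Glul, the glutamine synthetase of astrocytes, read 200.1, 595, 551 and 469 at 1, 2, 4 and 6 h on 94852_at, a log2 difference of 1.42, and 866, 657, 754.5 and 552 on 161826_r_at, a log2 difference of -0.42. Slc1a1, a neuronal glutamate transporter, read 337, 683.1, 683.0 and 640.5 on its brighter probe set and 40.5, 196, 82.2 and 72.5 on its dimmer one, both lowest at 1 h. Slc38a2, a glutamine transporter, had 4 probe sets. The brightest and the one without a suffix, 94433_at, read 436, 466, 390.4 and 335, a log2 difference of -0.15. Of the other 3, 161954_r_at read 26.2, 124, 81.4 and 48.8, 162233_r_at read 57.4, 32.5, 12.5 and 6.4, and 162135_r_at lay under the floor in every array. Glud1, glutamate dehydrogenase, read 2032, 1973, 2387 and 2299 on its brighter probe set, a log2 difference of 0.12, and its dim one had a log2 difference of 0.63. Got2, an aminotransferase, read 1262.5, 1396, 1338 and 1142 on its brighter probe set, a log2 difference of 0.03, and its dim one, under the floor at 1 and 4 h, had a log2 difference of 0.73.

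**Figure D4:**
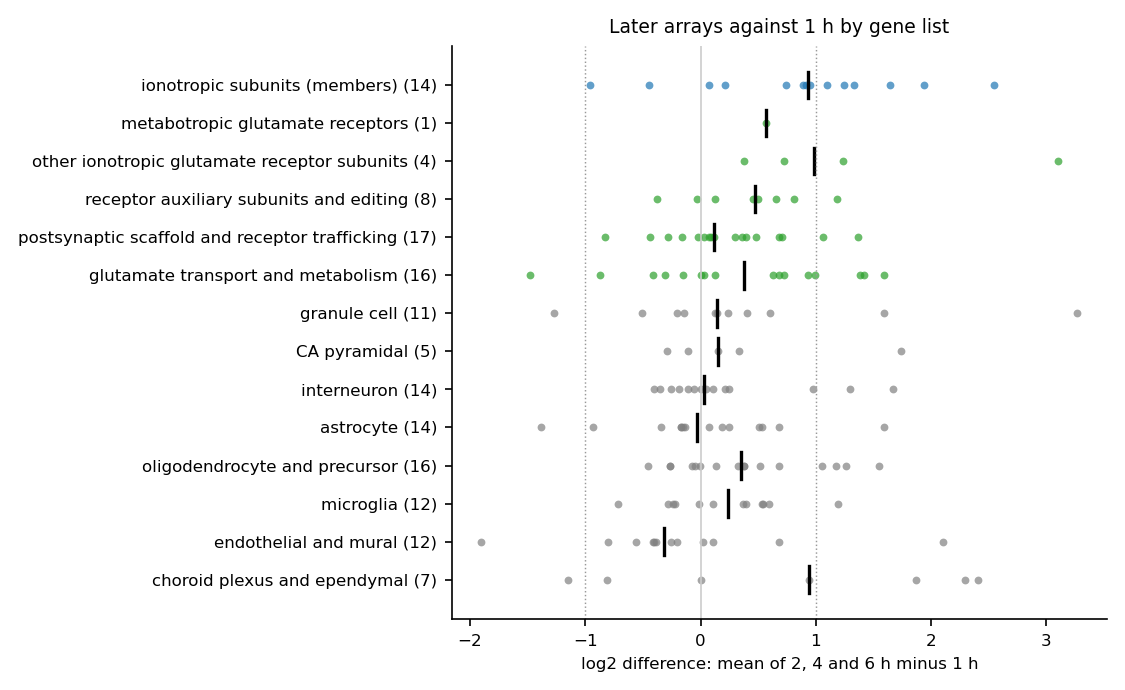
Log2 difference of the mean of the 2, 4 and 6 h arrays from the 1 h array by gene list: subunits (blue), other glutamate lists (green) and cell type markers (grey). Each point is 1 probe set, black bars are medians, the number of probe sets is in parentheses and dotted lines mark 2-fold. The subunit median is 0.93 and that of the choroid plexus list 0.94, while astrocyte and interneuron medians lie near 0.

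Markers of dentate granule cells did not share a direction: the later mean was above 1 h on 7 of their 11 probe sets and below on 4. Calb1 (calbindin) read 2033, 2052, 2323 and 2375 at 1, 2, 4 and 6 h, and Dsp (desmoplakin) 970.2, 1024.5, 1051 and 1109 on its brighter probe set. The largest difference was that of Gabrd, a GABA receptor subunit, which read 20.8, 190.4, 217 and 194, a log2 difference of 3.27. Prox1, the identity factor of these cells, read 71.6, 278, 155 and 232. The 4 with a lower later mean were Lct (1343.5, 936, 977 and 923), Neurod1 (418, 470.1, 326 and 353), 1 of 2 probe sets of Tdo2 (959, 763.5, 758 and 993) and the dimmer one of Dsp (under the floor at every later hour, against 39.5 at 1 h). The summed intensity of the 11 granule cell probe sets was 8283 to 8966 in the later arrays, against 7700.4 at 1 h. Of the 11, 2 were at least 2-fold higher later, where 7.58% of all 12422 were, and 1 lower, where 8.84% were. These 2 shares also apply to the counts of the marker lists that follow. A sum follows its brightest probe sets, so it does not measure cell content. Interneuron markers summed to 29036 to 31388 later, against 29015 at 1 h, with 2 of 14 higher and 0 lower. The brightest of them was Cck, at 11909 at 1 h. CA pyramidal markers summed to 7774 to 8228 later, against 6932 at 1 h, with 1 of 5 higher and 0 lower. Astrocyte markers summed to 74162 to 80771 later, against 75815 at 1 h, with 1 of 14 higher and 1 lower. The brightest were Mt3 (26441.5 at 1 h) and the brighter probe set of Apoe (26202 at 1 h). The later mean was above 1 h on 7 of the 14 and below on 7. Oligodendrocyte markers summed to 16507 to 23852 later, against 16516 at 1 h, with 4 of 16 higher. Microglial markers summed to 9736 to 10399 later, against 9336 at 1 h, with 1 of 12 higher. Endothelial and mural markers summed to 1722 to 2239 later, against 2291 at 1 h, with 1 of 12 higher and 1 lower. Choroid plexus and ependymal markers summed to 1139 to 3916 later, against 737 at 1 h, with 3 of 7 higher and 1 lower. The later mean was above 1 h on 5 of the 7 and below on 2. Their 1 probe set that passed the trend test was that of Ttr, the thyroid hormone carrier of the choroid plexus. Ttr was also the brightest of the list, at 224.6, 444, 1258 and 3009 at 1, 2, 4 and 6 h, so the sum mostly follows Ttr. No marker was at 0, and Aqp1, the water channel of that tissue, lay under the floor at 1, 2 and 4 h on 1 of its probe sets. The part of tissue composition in the subunit differences was not tested.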

How the data were processed

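The authors deposited linear intensity values in 1 table with a column for each array. The software and scaling behind them are not stated by the labels. The 2% trimmed mean over all 12488 rows was about 500.3 in each array, seen from the values, so values were used as deposited. Their number limits the precision, and read depth does not apply.

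The 66 control probe sets were left out of tests. Genes came from the supplied platform annotation, symbols updated through GRCm38.p6 identifiers, and 10833 probe sets had 1 gene. Values under the 10th percentile (16.4) were set to it before log2, and probe sets whose mean log2 reached the 40th percentile (6.66) were tested for a linear trend with limma 3.58.1 in R 4.3.3, two-sided, Benjamini-Hochberg adjusted over 7453. The procedure was run on simulated data with independent noise in each array and no shift of the 1 h array. Its only criterion was a small bias of the slopes, so it does not show which slopes 4 arrays can detect. Every probe set of each subunit gene is named, plus the 5 nearest courses, the Gapdh and beta-actin controls, and from other glutamate lists the 2 brightest and any 2-fold apart; marker genes named were chosen after their values were seen. Alternatives covered filter, scaling, floor, time scale, variance prior, fold, baseline and each array left out. The members and lists were chosen with earlier results of these data known.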

Additional observations from a re-analysis of the deposited data

Results flagged for a closer look

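In 4 of the 14 subunit probe sets (28.6%), 1 array stood far from the other 3 by Dixon's ratio, the gap to the nearest array divided by the whole range of log2 intensity, which exceeded its critical value. Chance flags about 1 in 20 such groups, and 11.6% of all 12422 probe sets exceeded the value. The ratio was 0.92 for the brighter Grik5 probe set and 0.908 for Grin2c. It was 0.917 for Gria2 on 92946_f_at. In these 3 the 1 h array was the one apart, and low. These 3 are among the 10 probe sets tested for a trend, and 8.63% of all 7453 such probe sets exceeded the value. The ratio was 1 for Gria2 on 162076_r_at, where the 6 h array was the one apart at 25.6 and the other 3 were set to the floor. With 3 values at the floor the ratio can only be 1, so this flag follows from the floor. The cause was not tested.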

How the results depend on the processing

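The choices of filter, scaling, floor, time scale, variance prior and array left 0 subunit probe sets past the trend threshold in limma at every setting run. Over all probe sets the count of 1 became 0 with no filter and 0 with a variance prior that ignores intensity, and ran from 0 to 1 when each array was left out. Subunit slopes kept their sign at every setting except without the 1 h array, where 4 of 10 turned. Over the 4 fits that leave out 1 array, slopes ran from -0.0894 to 0.5423 for Grin2b, from -0.175 to 0.1779 for the dimmer Grik5 probe set, from -0.0235 to 0.2313 for Gria1 on 92944_at and from -0.0976 to 0.3177 for Gria3. Without the 2 h array, 8 of the 10 had an unadjusted p under 0.05, as did 13.4% of all 7453. The lowest adjusted p of any subunit probe set in limma was 0.21. With the log2 of the hour these were 6, 8.95% and 0.504. With equal medians 3 of the 10 had an unadjusted p under 0.05 in limma (287 rising and 108 falling of all 7453). Without the 6 h array 1 had one (117 rising and 113 falling of all). The cause was not tested.

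The median log2 difference of the later arrays from 1 h, 0.93, was 0.976 with equal medians, 0.969 after quantile normalization, 1.10 with 1 value per gene and 1.17 over the 10 probe sets without a suffix. Leaving out 1 later array gave 0.921 to 1.02, and the 10 tested probe sets, an alternative chosen after seeing the data, 0.93, and those without the Gria2 probe set at the floor, likewise chosen afterwards, 0.953. It cannot be computed without the 1 h array. At 1.5-fold, 10 subunit probe sets were higher (14.7% of all) and 1 lower (20.7% of all) at 6 h. Against the mean of the other later arrays, 2, 0 and 0 were higher at 2, 4 and 6 h, and at 4 and 6 h 1 was lower, with 0 against 1 h. No paired analysis was possible because each hour has 1 array. Without replicate arrays at any hour, differences between hours have no error of their own.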
